A study of Mus musculus with 6 samples.

Results

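CD45+ cells from the spinal cords of young recipients were compared between day 10 and day 6 after adoptive transfer, a question of what had changed in the infiltrate and in resident cells over those days. The comparison rested on 18158 of the 38057 cells in the 4 single-cell libraries, 8315 cells of day 6 and 9843 of day 10. Cells were grouped by the cluster numbers that came with the counts, and the 12 of 16 clusters with 50 or more cells in both young libraries, 17765 cells in all, were used. There was 1 library per day, so no difference below has a replicate check, no test was run, and a difference compares these 2 libraries rather than the days.

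All recipients were C57BL/6 mice with experimental autoimmune encephalomyelitis (EAE), a model of multiple sclerosis, induced by transfer of CD4+ T cells that had been primed against a peptide of myelin oligodendrocyte glycoprotein (MOG) and cultured with IL-23. Young recipients were 8 to 12 weeks old, and each library was made from 4 pooled spinal cords, so that variation between mice is not visible. The middle-aged libraries of day 6 and day 10, from recipients aged 40 to 44 weeks, share no library with the young ones and are given beside them as the same contrast in other mice. Donor and host T cells cannot be told apart by these counts.

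In adoptive transfer EAE, encephalitogenic T cells enter the central nervous system and are restimulated there by antigen-presenting cells. Monocytes and neutrophils follow in large numbers, and monocytes differentiate into macrophages that strip and then clear myelin. Microglia, the resident macrophages, lose part of their homeostatic program and take up antigen presentation and lipid handling. Interferons act on nearly all of these cells through receptors that switch on shared sets of genes.

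The libraries held 57337626 unique molecular identifiers (UMIs, each marking 1 captured transcript) on day 6 and 69859331 on day 10. Median depth was close, at 6196 and 5963 UMIs per cell, as were mitochondrial shares of 2.53% and 2.66%, whereas ribosomal protein genes took 15.8% and 19.4%. *Ptprc*, which encodes the sorted CD45, had a UMI in 89.6% and 83.2% of cells. The young libraries of day 6 and day 10 shared 24 cell barcodes, and the other pairs of libraries shared 13 to 36.

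Within each cluster, the summed UMIs of a gene in a library were scaled to the cluster's total UMIs there, as counts per 1000000 (CPM). A change is the log2 ratio of CPM, day 10 over day 6, and the brackets beside it hold its 95% interval, exact binomial given both counts, which covers counting error only. Genes with 100 or more UMIs over both young libraries were compared, and a gene was counted as higher or lower when it differed at least 2-fold. Members of gene lists needed 20 UMIs, and the share of all genes with 20 UMIs that differed as much is given beside the first list count of each cluster in each direction and again where a list is read against it. Middle-aged values follow the young ones as the same ratio in those libraries, and differences between the ages were not tested.

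Clusters were named from marker genes. Clusters 1 and 5 were monocyte/macrophage-like, 0, 3 and 6 neutrophil-like, 2 T cell-like, 4 B cell-like, 7 dendritic cell-like, 9 NK cell-like and 8 and 10 microglia-like. Cluster 11, led by *Prss34*, *Mcpt8*, *Mpo* and *Elane*, was left unnamed. None of the 10 leading genes of cluster 0 was a neutrophil marker, and cluster 8 was shallow, with medians of 2059 and 3069.5 UMIs per cell. The clusters were built from all genes of all 4 libraries, so genes that differed between the days could also have moved cells between clusters.

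Among the 12 clusters compared, neutrophil-like cluster 6, dendritic cell-like cluster 7 and cluster 5 differed most in their share between the days. Neutrophil-like cluster 6, led by *Ltf*, *Ngp*, *Ly6g* and *Camp*, held 60 cells or 0.722% on day 6 and 515 cells or 5.23% on day 10, a 7.25-fold higher share. In middle-aged recipients its share was 0.429% and 0.841%. Dendritic cell-like cluster 7 held 7.53% and then 2.01%, a 3.74-fold lower share, against 2.88% and 3.23% in middle-aged recipients. Monocyte/macrophage-like cluster 5 held 9.83% and then 4.16%, or 2.36-fold less, and 6.39% and 3.48% in middle-aged recipients. Of the 10 leading genes of these clusters, 1, 5 and 7 differed at least 2-fold between the young libraries, and their part in the shares was not tested.

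Shares of the other clusters compared differed less. Microglia-like cluster 8 held 2.99% and 6.79% of the cells and cluster 10 held 5.2% and 3.68%, so that both together went from 8.19% to 10.5%. On day 10, however, cluster 8 held 12100 CPM of summed monocyte/macrophage markers and 2700 CPM of microglia markers. T cell-like cluster 2 held 15.7% and 19.5%, and cluster 1 held 28.7% and 22%. B cell-like cells made up 3.55% and 5.52%, and NK cell-like cells 3.11% and 2.47%. Neutrophil-like cluster 0 differed little, at 17.9% and 17.6%, where the middle-aged libraries held 38.7% and 21.9%. Neutrophil-like cluster 3 held 2.83% and 5.22%. The share of unnamed cluster 11 was 1.17% and 2.50%, whereas cluster 12, left out for its size, went from 6 to 131 cells, an 18.4-fold higher share, and cluster 14 from 17 to 90 cells (4.47-fold). Between 0 and 8 of the 10 leading genes of the clusters in this paragraph that were compared differed at least 2-fold, with 0 in cluster 9 and 8 in cluster 3.

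**Figure D1:**
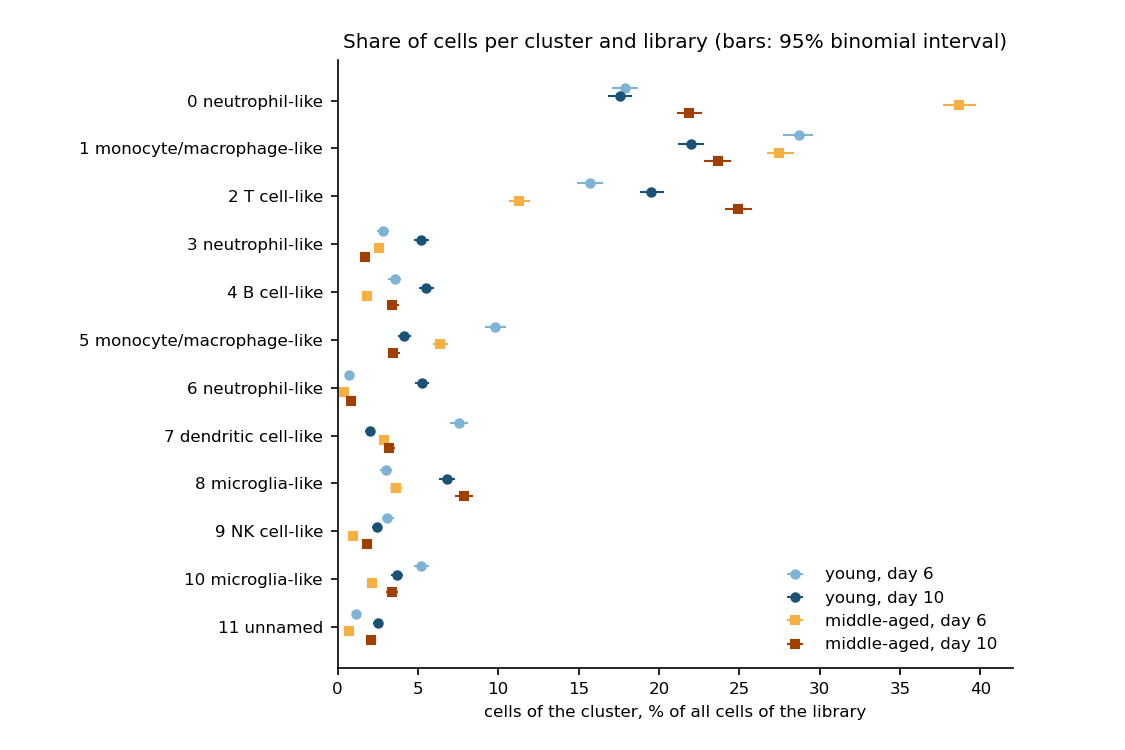
Percent of all cells of a library in each cluster (horizontal axis), with exact binomial 95% intervals that cover counting error only, for the young and middle-aged libraries of day 6 and day 10. In young recipients cluster 6 lies at 0.722% and 5.23% and cluster 7 at 7.53% and 2.01%.

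Interferon-stimulated genes were lower on day 10 in nearly every cell type. Several hold letters that match a recognition motif of interferon-induced factors in the 250 bases before their RefSeq start. The stretches that follow are RefSeq promoter sequence of GRCm38.p6. They are shown for some of the genes with a match among the 10 that were lower in the most clusters. Each runs 5′ to 3′ on the gene's strand, and capitals mark matches to GAAA, any 2 bases and GAAA, or to its complement TTTC, any 2 bases and TTTC, with overlapping matches merged.
Isg15 (chr4:156200850-156200921, minus strand): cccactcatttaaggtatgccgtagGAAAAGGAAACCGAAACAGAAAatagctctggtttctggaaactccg
Ifit1 (chr19:34640760-34640838, plus strand): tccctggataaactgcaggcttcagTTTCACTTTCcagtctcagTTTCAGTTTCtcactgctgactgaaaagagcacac
Rsad2 (chr12:26456538-26456597, minus strand): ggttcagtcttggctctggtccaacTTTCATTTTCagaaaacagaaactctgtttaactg
Cxcl10 (chr5:92349068-92349127, minus strand): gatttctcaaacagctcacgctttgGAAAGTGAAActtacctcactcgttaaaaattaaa
Slfn5 (chr11:82951922-82951981, plus strand): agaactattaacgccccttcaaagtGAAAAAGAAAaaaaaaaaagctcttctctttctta
The match lies 56 bases before the start of *Isg15*, 75 before *Ifit1*, 110 before *Rsad2*, 203 before *Cxcl10* and 145 before *Slfn5*, counted from the RefSeq start. For *Slfn5* the annotations differ, as the GENCODE gene begins further upstream, at 82951349, and takes in the stretch shown. In the 250 bases before the start, the motif on either strand was found in 936 of 27025 genes, or 3.46%. It was found in 6 of the 9 genes of that group with a promoter sequence (66.7%), in 6 of 11 type I interferon-stimulated genes (54.5%) and in 9 of 11 interferon-gamma induced genes (81.8%). None of the 9 sequences matched among the 10 genes that were higher in the most clusters held it. A match is a description of letters and not a bound site.

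Type I interferon-stimulated genes had a median log2 ratio below 0 in 12 of 12 clusters and below -1 in 11 of 12. None of the 16 members in the table was at least 2-fold higher in any cluster. In monocyte/macrophage-like cluster 1, 15 of 16 members were lower with a median of -2.50, where 8.61% of all genes were lower and the median over all genes was 0.08. In cluster 5 the count was 16 of 16 with a median of -2.80 (6.37% of all genes), and in T cell-like cluster 2 it was 15 of 16 with -2.77 (5.28%). Neutrophil-like clusters 0, 3 and 6 had 12 of 15, 15 of 15 and 15 of 15 members lower (5.23%, 13.3% and 12% of all genes), with medians of -1.63, -3.20 and -2.88. In dendritic cell-like cluster 7 it was 14 of 16 (5.19%) with a median of -2.36. B cell-like and NK cell-like cells had smaller medians of -1 and -1.31, with 7 of 13 and 10 of 15 members lower (4.53% and 3.01%). Cluster 11 had 14 of 15 lower (6.67%) with a median of -2.95.

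Microglia-like cluster 10 had the median nearest to 0. In microglia-like cluster 10, 4 of 16 members were lower (9% of all genes), with a median of -0.75 where the median over all genes was -0.18. Cluster 8 had 10 of 15 lower (16.5% of all genes) and a median of -1.55. The middle-aged medians of the list were -1.85 in cluster 10, -2.40 in cluster 8, -3.07 in cluster 1 and -2.95 in cluster 2, and all 12 were below 0.

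*Isg15*, a ubiquitin-like protein that is conjugated to other proteins during interferon responses, was lower in all 11 clusters where it could be compared. In cluster 1 it stood at 2170 CPM on day 6 and 246 CPM on day 10 (log2 ratio -3.14 [-3.18 to -3.10]), and at 2260 and 87.3 CPM in middle-aged recipients. In T cell-like cluster 2 the values were 516 and 50 CPM (-3.37 [-3.49 to -3.25]). Neutrophil-like cluster 0 started highest, at 4420 CPM, and still had 1270 CPM on day 10 (-1.80 [-1.84 to -1.76]). Cluster 10 had 591 and 210 CPM (-1.49 [-1.61 to -1.37]), and its middle-aged ratio was -3.40. Day 10 was the lower day in each of these clusters and in both ages.

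Genes of neighboring function went the same way. *Slfn5*, a member of the Schlafen family, was lower in 11 of 11 clusters and *Trim30a*, a regulator of innate signaling, in 11 of 12. *Ifit1*, which binds foreign RNA, was lower in 10 of 10 and *Rsad2*, the antiviral enzyme viperin, in 9 of 9. *Irf7* and *Isg20* were each lower in 9 of 11, and *Slfn4* and *Tgm2* in 10 of 10. Over all genes, 7 were lower in 10 or more clusters and 1 was higher in as many. At 6 or more clusters the counts were 139 lower and 23 higher.

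*Cxcl10*, a chemokine that draws CXCR3-bearing T cells, was lower in 10 of 11 clusters. Its highest level was in cluster 5, with 8980 CPM on day 6 and 1350 CPM on day 10 (log2 ratio -2.74 [-2.78 to -2.70]). Cluster 1 had 2490 and 408 CPM (-2.61 [-2.64 to -2.58]). Microglia-like cluster 10 was the exception, at 1040 and 832 CPM (-0.32 [-0.39 to -0.25]). In the middle-aged libraries the ratio in cluster 10 was -1.85.

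**Figure D2:**
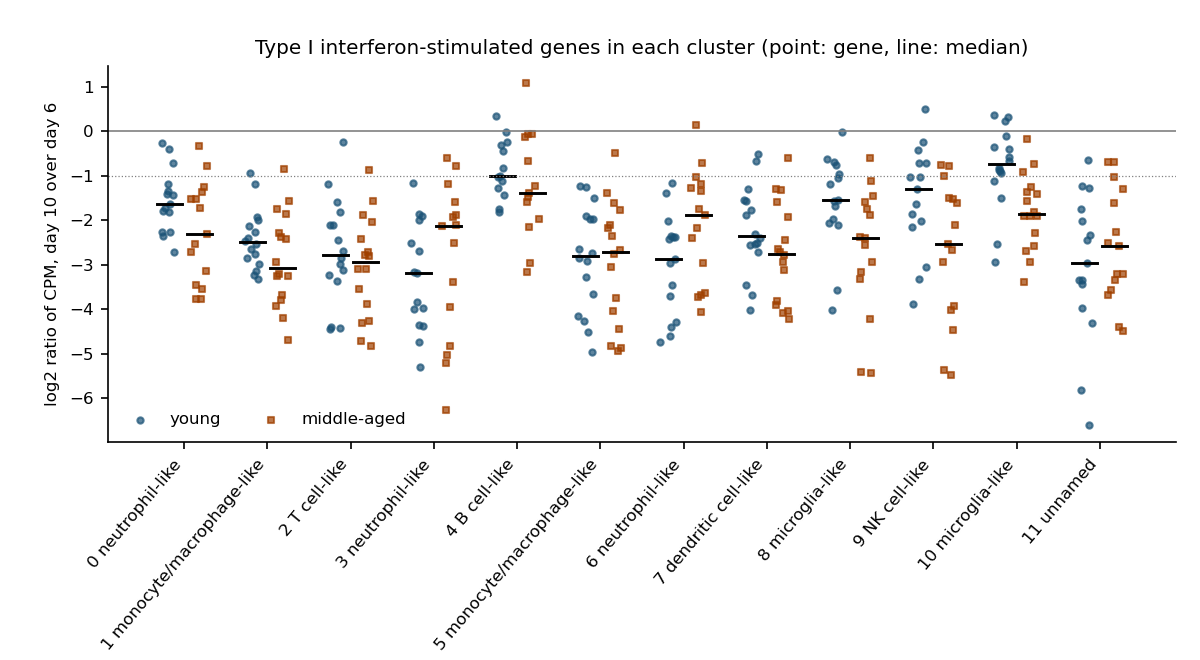
Log2 ratio of CPM, day 10 over day 6, of each type I interferon-stimulated gene with 20 or more UMIs in young recipients (points), by cluster, with the list's median in young and middle-aged recipients. Young medians run from -0.75 in cluster 10 to -3.20 in cluster 3.

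Interferon-gamma induced genes, among them guanylate-binding proteins and immunity-related GTPases, were lower in most of the same clusters. In cluster 1, 13 of 14 were lower with a median of -1.71 (8.61% of all genes were lower), in cluster 5, 13 of 14 with -1.80 (6.37%), and in cluster 2, 12 of 14 with -1.69 (5.28%). The median was -4.48 in neutrophil-like cluster 3, where 11 of 11 were lower (13.3% of all genes), but -0.33 in microglia-like cluster 10, where none was lower and *Ciita* was higher. In B cell-like cluster 4 it was -0.15. *Ifng* itself was not lower in T cells, with 441 and 559 CPM (log2 ratio 0.34 [0.28 to 0.40]), although it was in middle-aged recipients, with 1500 and 361 CPM.

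Fewer genes were higher across many clusters, and those named here are known from neutrophils or macrophages. *Chil3*, a chitinase-like protein of myeloid cells, was higher in 12 of 12 clusters, *Apoe*, the lipid carrier, in 8 of 12 and *Retnlg*, a neutrophil secretory protein, in 8 of 9. The granule genes *Camp*, *Ngp* and *Ltf* were each higher in 7 of 10. These transcripts also appeared in cells that should lack them. Among B cell-like cells (median depth 2885 and 2402 UMIs) *Apoe* had a UMI in 40.7% of cells on day 6 and 70.7% on day 10, *Chil3* in 5.42% and 31.1% and *S100a8*, a neutrophil calcium-binding protein, in 12.9% and 47.7%. With each cell thinned to 1000 UMIs these were 26.5% and 50.2%, 1.36% and 13.7%, and 4.76% and 22.2%. In T cell-like cells *Apoe* had a UMI in 9.41% and 48.4%, below the B cell-like shares of the same days. The part of free RNA in the rises of these genes was not tested.

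**Figure D3:**
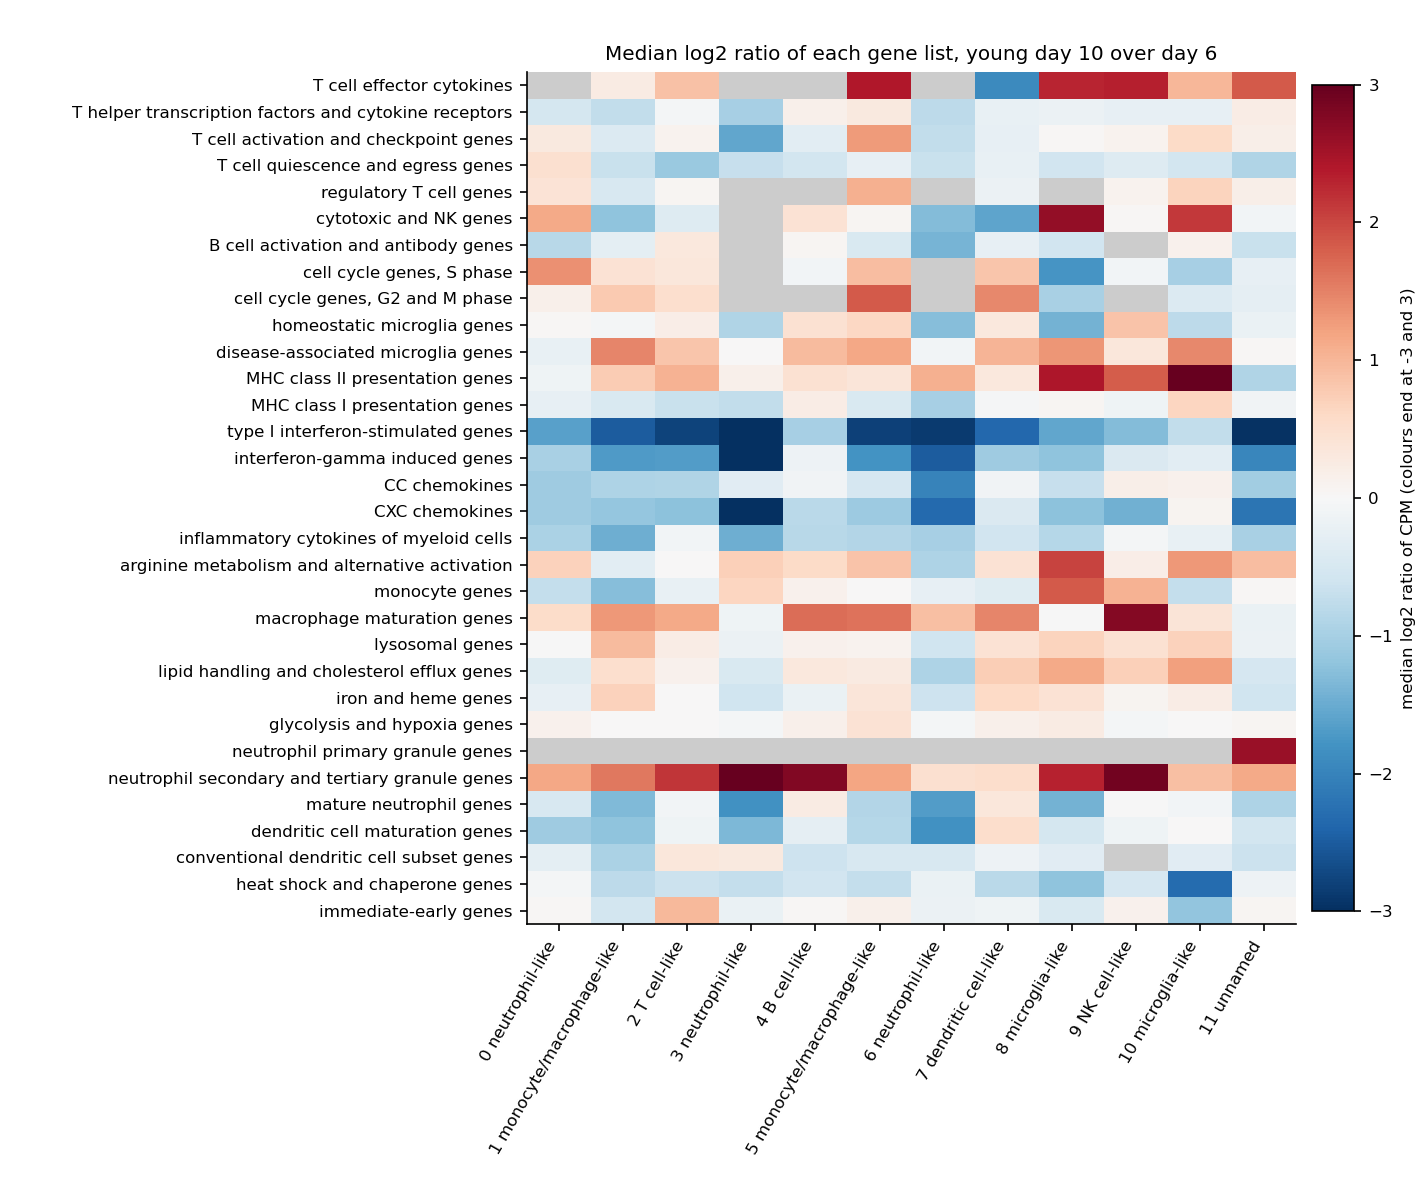
Median log2 ratio of CPM, day 10 over day 6, of each gene list (rows) in each cluster (columns) in young recipients, with blue for lower and red for higher on day 10 and gray where fewer than 3 members had 20 UMIs. Type I interferon-stimulated genes are below 0 in all 12 columns, and MHC class II genes reach 3.06 in cluster 10.

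Monocyte/macrophage-like cells of cluster 1, led by *Arg1*, showed higher macrophage genes and lower monocyte and inflammatory genes on day 10. Of 9675 genes, 865 were higher (8.94%) and 748 lower (7.73%). Macrophage maturation genes were higher for 11 of 14 members with a median log2 ratio of 1.30 (12.3% of all genes were higher), and 1.81 in middle-aged recipients. Monocyte genes were lower for 7 of 12 and higher for 2, with a median of -1.27 (8.61% of all genes were lower).

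The lipid carrier *Apoe* was the most abundant of the maturation genes, at 2740 CPM on day 6 and 13800 CPM on day 10 (log2 ratio 2.33 [2.32 to 2.34]), and 2720 and 23500 CPM in middle-aged recipients. *Trem2*, a lipid-sensing receptor of phagocytes, had 57.6 and 408 CPM (2.82 [2.74 to 2.91]). *Gpnmb*, a glycoprotein of lipid-laden macrophages, had 14.9 and 233 CPM (3.96 [3.80 to 4.13]). All 3 were higher in both ages. *Gpnmb* had a UMI in 2.39% of cluster 1 cells on day 6 and 32.4% on day 10, or 1.05% and 13.1% after thinning, which left out 4 cells in each library. In B cell-like cells it was 0% and 0.921%. The median depth of cluster 1 was 8311 and 10094.5 UMIs.

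By size of change, the 5 largest rises in cluster 1 were those of *Mmp12*, *Syngr1*, *Ms4a7*, *Gdpd1* and *Tmeff1*. *Mmp12*, the macrophage elastase, went from 3.05 to 120 CPM (log2 ratio 5.29 [4.95 to 5.66]), where the middle-aged libraries held 36.1 and 88.4 CPM. *Ms4a7*, a membrane protein of mature macrophages, went from 8.57 to 152 CPM (4.15 [3.94 to 4.36]). The 5 largest falls were those of *Ifit3b* (-4.11), *Isg20* (-4.04), *Slfn4* (-3.83), *Il15* (-3.79) and *Hic1* (-3.63). *Il15* encodes a cytokine that sustains NK cells and memory T cells. It stood at 41 and 2.96 CPM, and at 19.3 and 3.55 CPM in middle-aged recipients.

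Lysosomal and lipid genes were among those higher in cluster 1. Disease-associated microglia genes, which phagocytes share, were higher for 10 of 16 members with a median of 1.47, where 12.3% of all genes were higher. *Ctsd*, a lysosomal protease, had 491 and 2460 CPM (log2 ratio 2.33 [2.30 to 2.36]). Lysosomal genes as a list were higher for 5 of 16 with a median of 0.95, and lipid handling genes for 5 of 12, with 2 lower. MHC class II genes were higher for 4 of 9, with *H2-Aa*, an MHC class II chain, at 1570 and 3580 CPM.

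Genes of inflammation were lower in cluster 1. Inflammatory cytokines were lower for 6 of 10 with a median of -1.47 (8.61% of all genes were lower), among them *Il1b* at 4410 and 1580 CPM (log2 ratio -1.48 [-1.49 to -1.46]). *Ccl2*, which recruits monocytes, had 1340 and 351 CPM (-1.93 [-1.97 to -1.89]). *Ly6c2*, a surface antigen of inflammatory monocytes, had 2460 and 1390 CPM, which is less than 2-fold. Cytotoxic genes were lower for 5 of 9, with a median of -1.21, where the middle-aged median was 1.06.

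The arginine enzymes differed between the ages in their values. *Arg1*, which turns arginine into ornithine, had 1390 and 2980 CPM in young cluster 1 (log2 ratio 1.10 [1.08 to 1.12]) and 3590 and 2990 CPM in middle-aged. *Nos2*, which makes nitric oxide from the same substrate, had 140 and 188 CPM in young (0.43 [0.36 to 0.50]) and 768 and 96.8 CPM in middle-aged. By day 10 the *Arg1* levels were close, and the middle-aged libraries had started higher in both genes. The neutrophil markers summed to 4140 and 5750 CPM in young cluster 1, with none of 12 at 0, and their part in these results was not tested.

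Monocyte/macrophage-like cluster 5, led by *Dmkn*, *Vcan* and *Cxcl10*, held a smaller share of cells on day 10 and far less interferon-induced transcript. Of 7134 genes, 564 were higher (7.91%) and 497 lower (6.97%), and centered on the median gene the split was 331 higher and 663 lower. Its 5 largest falls were all interferon-induced genes, namely *Ifit3b* (-5.41), *Ifit3* (-4.97), *Ifit2* (-4.52), *Ifit1* (-4.26) and *Rsad2* (-4.15). *Ifit3* had 443 CPM on day 6 and 14.1 CPM on day 10, and 430 and 13.8 CPM in middle-aged recipients. *Rsad2* had a UMI in 76.9% and 14.4% of the cells, or 45.9% and 4.16% when thinned, at median depths of 8538 and 9101 UMIs. In B cell-like cells it was 2.37% and 0.737%.

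Among genes higher in cluster 5, *Chil3* had 2400 and 12000 CPM (log2 ratio 2.32 [2.29 to 2.34]), but 6870 and 7370 CPM in middle-aged recipients. *Arg1* had 104 and 716 CPM (2.78 [2.67 to 2.90]). *Ly6c2* did not fall here as it did in cluster 1, with 1140 and 1170 CPM (0.04 [-0.01 to 0.09]). Macrophage maturation genes were higher for 9 of 14 with a median of 1.62 (15.1% of all genes were higher), and genes of the G2 and M phases for 8 of 9 with a median of 1.83. *Mki67*, a marker of dividing cells, had 4.74 and 13.6 CPM.

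The largest rises of cluster 5 were those of *Lag3*, *Camk2n1*, *Mmp14*, *Hvcn1* and *Ccdc125*. *Lag3*, an inhibitory receptor of T cells, had 10 UMIs on day 6 and 172 on day 10 (log2 ratio 4.96 [4.04 to 6.04]), and with 0.5 UMIs added to each count a ratio of 4.89 over all cells and -0.087 when cells with UMIs of another lineage were left out. T cell markers summed to 394 and 1170 CPM in this cluster, and 9 of 11 were higher, with *Cd3e*, a chain of the T cell receptor complex, in 9.06% and 25.2% of cells. A T cell marker was found in 113 of 817 cells and 143 of 409. *Camk2n1*, an inhibitor of a calcium-dependent kinase, had 2.82 and 24.5 CPM, and *Mmp14*, a membrane metalloprotease, 6.79 and 56.7 CPM (3.06 [2.63 to 3.52]). Neutrophil markers also moved, from 7460 to 17500 CPM in sum. With cells holding UMIs of another lineage left out, no other of these largest rises changed direction. The part of neutrophil markers in the other rises was not tested further.

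Microglia-like cluster 10, led by *Adamts1*, *Nav3*, *Sall1* and *Fcrls*, had much more antigen presentation and apolipoprotein transcript on day 10 and less heat shock transcript. Of 7051 genes, 210 were higher (2.98%) and 456 lower (6.47%), and centered on the median gene the split was 319 higher and 300 lower. MHC class II genes were higher for 8 of 9 members with a median log2 ratio of 3.06, where 4.48% of all genes were higher, and the middle-aged median was 1.10. Heat shock and chaperone genes were lower for 11 of 12 with a median of -2.31, where 9% of all genes were lower, and -0.83 in middle-aged recipients.

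*Cd74*, the invariant chain that escorts MHC class II, had 1140 CPM on day 6 and 9520 CPM on day 10 (log2 ratio 3.06 [3.01 to 3.11]), and 2950 and 8120 CPM in middle-aged recipients. *H2-Aa* had 292 and 3180 CPM (3.45 [3.35 to 3.54]), and 828 and 2690 CPM in middle-aged. *Ciita*, the master regulator of these genes, had 16.3 and 93.3 CPM (2.52 [2.11 to 2.95]). Day 6 was lower in the young library for each of the 3 genes, and the day 10 values lay closer together between the ages than those of day 6. *H2-Aa* had a UMI in 30.1% of the cells on day 6 and 97.8% on day 10, at median depths of 6931 and 8673.5 UMIs. Thinned, which left out 8 cells and 1 cell, the shares were 9.67% and 92.2%. T cell-like cells, with median depths of 4715 and 6225 UMIs, had it in 7.35% and 16%, or 1.39% and 2.97% thinned. MHC class I genes were higher for 5 of 14, with a median of 0.64, and *B2m*, their common light chain, had 3180 and 6370 CPM.

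The 5 largest rises in cluster 10 were those of *Apoc1*, *Serping1*, *Apoe*, *Serpina3f* and *Chchd10*. *Apoc1*, an apolipoprotein, had 11 and 406 UMIs (3.20 and 116 CPM). *Apoe* had 991 and 13100 CPM (log2 ratio 3.73 [3.68 to 3.78]), and 1100 and 16200 CPM in middle-aged. It had a UMI in 47.5% and 98.9% of these cells, or 21.9% and 93.1% when thinned, which after thinning exceeds the B cell-like share on day 10 but not on day 6. *Serping1*, the inhibitor of complement C1, went from 4 to 123 UMIs (4.91 [3.52 to 6.81]). Disease-associated microglia genes were higher for 11 of 15 with a median of 1.44, including *Cst7*, a lysosomal protease inhibitor, at 51.5 and 241 CPM. *Lpl*, another member and a lipoprotein lipase, was lower, at 51.8 and 13.7 CPM, and had 27.3 and 52.9 CPM in middle-aged recipients.

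The 5 largest falls were those of *Fcrls*, *Adamts1*, *Hspa1b*, *Hspa1a* and *Serpinf1*. *Fcrls*, an Fc receptor-like scavenger receptor of homeostatic microglia, had 493 and 8.54 CPM (log2 ratio -5.85 [-6.42 to -5.33]), and 116 and 23.5 CPM in middle-aged. *Hspa1a*, a chaperone induced by heat and other stress, had 1620 and 95.3 CPM (-4.09 [-4.25 to -3.93]), and 159 and 51.9 CPM in middle-aged. Both started far higher in the young library of day 6 than in the middle-aged one. *Hspa1a* had a UMI in 81.0% and 27.6% of cells, or 57.8% and 6.65% when thinned, and in 2.03% and 2.95% of B cell-like cells. Immediate-early genes, which respond to stimulation and to dissociation of tissue, were lower for 8 of 15 with a median of -1.18 (9% of all genes were lower), among them *Fos* at 2550 and 1020 CPM. In middle-aged recipients their median was 0.00.

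Other homeostatic genes of cluster 10 moved less than *Fcrls*. The list was lower for 5 of 14 with a median of -0.79 (9% of all genes were lower), and 0.07 in middle-aged recipients. *P2ry12*, a purinergic receptor of resting microglia, had 409 and 201 CPM (log2 ratio -1.02 [-1.15 to -0.89]). *Tmem119*, a microglial membrane protein, had 559 and 341 CPM (-0.71 [-0.82 to -0.61]), and *Sall1*, a transcription factor of microglial identity, 125 and 108 CPM. The last 2 values are less than 2-fold apart. Genes of the S phase were lower for 8 of 16 with a median of -1.01, against the same 9%. NK cell markers summed to 16.6 and 91.0 CPM and T cell markers to 96.6 and 166 CPM in this cluster, and *Ccl5*, a chemokine that NK and T cells also make, had 194 and 1080 CPM. With cells holding UMIs of another lineage left out, the MHC class II median was 3.16, against 3.06 with all cells. That left out 29 of 432 cells and 39 of 362. The filter used no monocyte/macrophage or dendritic cell markers, so it cannot show the part of transcript from those cells. The part of NK and T cell markers in the other results was not tested further.

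**Figure D4:**
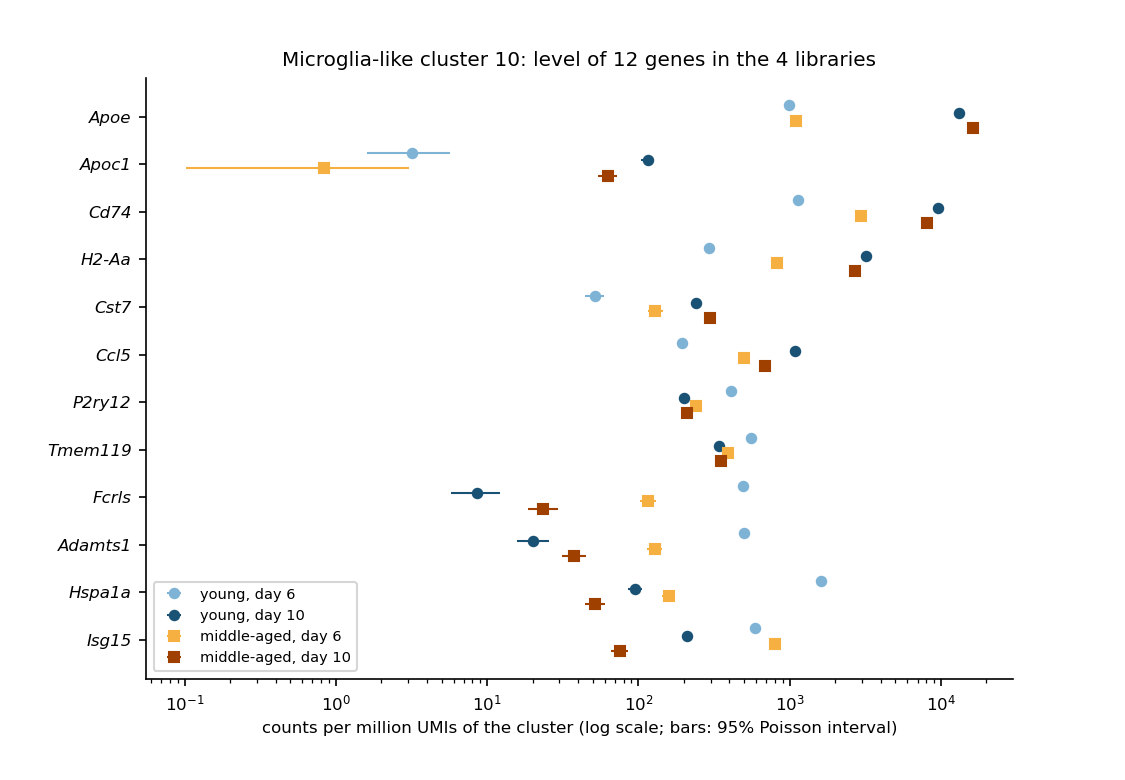
CPM on a log10 axis of genes of microglia-like cluster 10 in the young and middle-aged libraries of day 6 and day 10. *Apoe* goes from 991 to 13100 CPM and *Fcrls* from 493 to 8.54 CPM in young recipients.

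Microglia-like cluster 8, with *Crybb1* and *Cd81* among its leading genes, had more transcript of several monocyte and macrophage genes on day 10 than on day 6. Monocyte genes were higher for 6 of 10 and lower for 1, with a median of 1.84 (5.8% of all genes were higher). Macrophage maturation genes were higher for 5 of 14 and lower for 0, with a median of -0.01 and 7 members on each side of 0. Of 3091 genes, 178 were higher (5.76%) and 352 lower (11.4%), and centered on the median gene the split was 267 higher and 163 lower. *Ms4a7* had 0 UMIs on day 6 and 280 on day 10, at least 24.3-fold higher against a floor of 3 counts, and 0 of 249 cells had a UMI on day 6, with an upper limit of 1.47%. *Slc7a2*, an arginine transporter, had 0 and 125, at least 10.8-fold higher. *Chil3* had 78.3 and 4820 CPM (log2 ratio 5.94 [5.55 to 6.37]) and *Arg1* 56.8 and 1250 CPM (4.46 [4.00 to 4.97]). *Apoe* had 938 and 15200 CPM. Homeostatic genes were lower for 12 of 14 with a median of -1.41 (16.5% of all genes were lower), and *Fcrls* had 295 and 4.39 CPM (-6.07 [-7.10 to -5.20]).

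Monocyte/macrophage markers summed to 1750 and 12100 CPM in cluster 8 and microglia markers to 6270 and 2700 CPM, with 2 of 13 monocyte/macrophage markers at 0 on day 6. In middle-aged recipients the sums were 2150 and 15400 CPM and 4050 and 3270 CPM. *Ly6c2* had a UMI in 22 of 249 cells and 215 of 668. The name microglia-like therefore fits this cluster less well on day 10. With cells holding a *Ly6c2* UMI left out, no list median that started past 2-fold changed direction. That leaves out only cells with a captured *Ly6c2* UMI. How far a change in its cells set the changes in its genes was not tested. The other largest rises were those of *Acp5*, an acid phosphatase (2 and 359 UMIs, log2 ratio 5.54 [3.68 to 8.60]), and *Apoc1* (1 and 151 UMIs, 5.29 [2.79 to 10.61]). The largest falls after *Fcrls* were those of *Ccl12* (3350 and 329 CPM), *Tmem176a*, *Tmem176b* and *Klk8*. MHC class II genes were higher for 6 of 9 with a median of 2.42 (5.8% of all genes were higher), and S phase genes lower for 13 of 15 with a median of -1.76.

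T cell-like cells of cluster 2 carried more transcript of several effector cytokines on day 10 and less of quiescence and egress genes. Of 8497 genes, 206 were higher (2.42%) and 331 lower (3.9%), and centered on the median gene, which lay at -0.18, the split was 277 higher and 215 lower. Effector cytokines were higher for 7 of 14 and lower for 2, with a median log2 ratio of 0.88, where 4.19% of all genes were higher. In middle-aged recipients their median was -0.95. Quiescence and egress genes were lower for 7 of 10 with a median of -1.11, where 5.28% of all genes were lower, and -0.36 in middle-aged.

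*Nrgn*, a calmodulin-binding protein best known from neurons, had the largest rise, from 14 to 7552 UMIs. That is 1.98 and 545 CPM (log2 ratio 8.11 [7.36 to 8.98]), and 3.06 and 646 CPM in middle-aged recipients. It had a UMI in 0.765% and 33% of T cell-like cells, or 0.077% and 17.7% when thinned to 1000 UMIs, which left out 8 and 7 cells. In B cell-like cells it was 1.36% and 0.737%. *Nrgn* lies on chromosome 9 of GRCm38, at 37544492 to 37552904 on the minus strand. The day 6 share did not exceed the B cell-like one, so *Nrgn* was not detectable above background in T cells on day 6.

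The next 4 rises in cluster 2 were those of *Ccl1*, *Lag3*, *Rgs16* and *Igfbp7*. *Ccl1*, a chemokine that acts on CCR8, had 45.0 and 1390 CPM (log2 ratio 4.94 [4.79 to 5.11]), and 210 and 972 CPM in middle-aged. *Lag3* had 12 and 188 CPM (3.97 [3.66 to 4.30]), and 45.2 and 174 CPM in middle-aged. *Lag3* UMIs were in 3.90% and 39.8% of cells, or 0.616% and 13.3% when thinned, and in 0% and 0.552% of B cell-like cells. *Rgs16*, which dampens G protein signaling, had 14.4 and 206 CPM, and *Igfbp7*, a secreted binding protein of growth factors, 13.8 and 161 CPM. For each of these 4 genes the young library of day 6 had the lowest level of the 4 libraries.

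Among cytokines, *Csf2*, which encodes GM-CSF, had 51.5 CPM on day 6 and 350 CPM on day 10 (log2 ratio 2.76 [2.61 to 2.92]), and 211 and 196 CPM in middle-aged. *Il17a* had 115 and 300 CPM (1.38 [1.27 to 1.49]), and 702 and 377 CPM in middle-aged. *Tnfsf11*, the ligand RANKL, had 34.6 and 191 CPM (2.46 [2.27 to 2.66]). *Il3*, a growth factor of myeloid precursors and mast cells, had 0 and 95 UMIs, at least 16.2-fold higher. *Il22*, which acts on epithelia, was lower in both ages, at 21.0 and 9.31 CPM in young. The share of T cell-like cells with a *Csf2* UMI was 3.75% and 20.7%, or 0.924% and 8.92% when thinned, and 0% in B cell-like cells of either day. *Cd4* was in 49.4% and 64.1% of the cells and *Cd8a* in 11.9% and 8.06%, which thinning changed to 15.2% and 19.6%, and 4.85% and 2.77%.

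Genes of circulating T cells were lower in cluster 2. *S1pr1*, the receptor by which T cells leave lymphoid organs, had 150 and 41.4 CPM (log2 ratio -1.86 [-2.00 to -1.71]), and 69.6 and 48.5 CPM in middle-aged. *Klf2*, which drives *S1pr1*, had 347 and 125 CPM (-1.48 [-1.56 to -1.39]). *Tcf7*, a factor of naive and memory cells, had 166 and 63.0 CPM (-1.40 [-1.53 to -1.27]). The young library of day 6 had the highest level of the 4 libraries for these 3 genes. Immediate-early genes went up instead, for 7 of 15 with a median of 0.97 (4.19% of all genes were higher), among them *Nr4a1*, which follows antigen receptor signals, at 121 and 364 CPM. The 5 largest falls were those of *Ifit3b* (-4.65), *Ifit3* (-4.45), *Rsad2* (-4.43), *Ifit1* (-4.41) and *Cmpk2* (-3.83).

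Lists of other T cell functions had medians near 0. Activation and checkpoint genes were higher for 3 of 15 and lower for none, with a median of 0.11. T helper transcription factors and cytokine receptors were higher for 3 of 16 and lower for none, with a median of -0.06, where 4.19% of all genes were higher. Of 9 regulatory T cell genes none was called in either direction. Cytotoxic genes were lower for 1 of 13 (5.28% of all genes). Neutrophil markers in cluster 2 summed to 98.8 and 510 CPM, with 9 of 11 higher and none of 12 at 0, and to 247 and 130 CPM in middle-aged recipients. With cells holding UMIs of another lineage left out, none of the 5 largest rises and falls of cluster 2 changed direction. That left out 26 of 1307 cells and 44 of 1923, and no monocyte/macrophage markers were used. It therefore cannot show the part of transcript spread over many cells. *S100a8*, for example, had a UMI in 13.2% and 60.8% of T cell-like cells. The part of neutrophil markers in the results named here was not tested further. T cell markers themselves summed to 6000 and 6230 CPM.

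**Figure D5:**
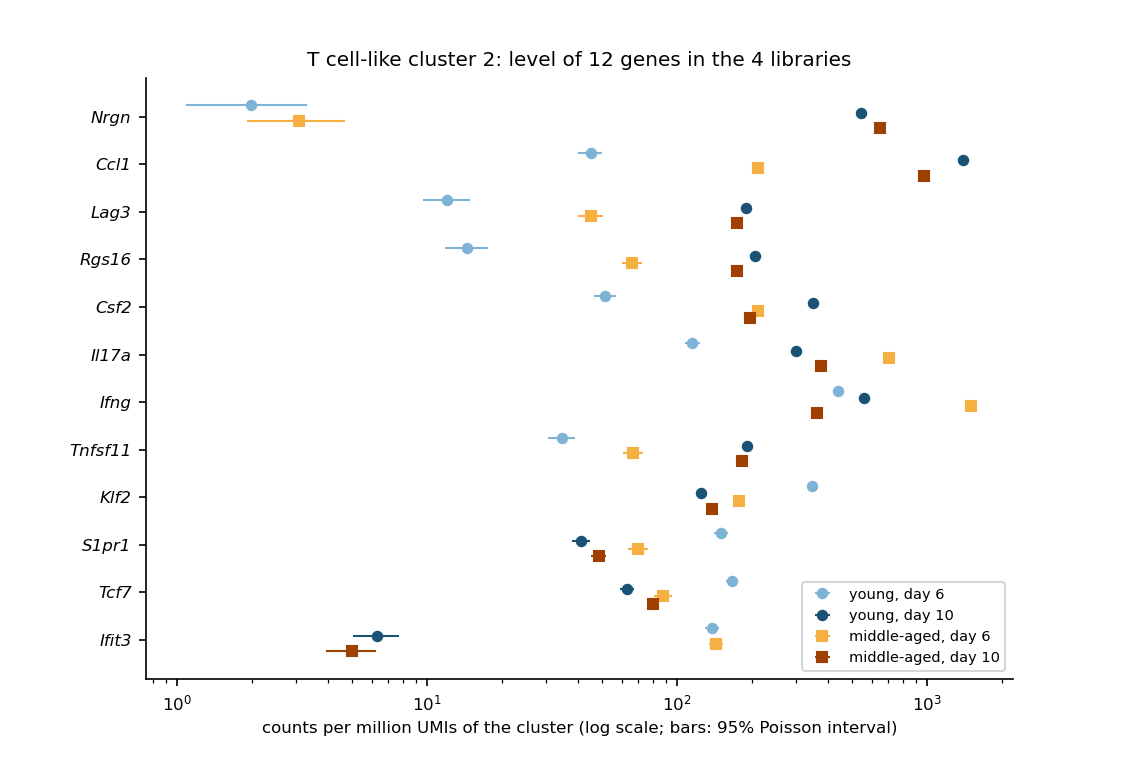
CPM on a log10 axis of genes of T cell-like cluster 2 in the young and middle-aged libraries of day 6 and day 10. *Nrgn* goes from 1.98 to 545 CPM, *Csf2* from 51.5 to 350 CPM and *S1pr1* from 150 to 41.4 CPM in young recipients.

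The neutrophil-like clusters differed from one another, with secondary and tertiary granule genes higher for 11 of 11 members in cluster 3, 6 of 11 in cluster 0 and 1 of 11 in cluster 6 (17.7%, 39.7% and 9.34% of all genes were higher). By contrast, CXC chemokines were lower for 3 of 6 members in cluster 0, 5 of 5 in cluster 3 and 4 of 6 in cluster 6 (5.23%, 13.3% and 12% of all genes were lower). In cluster 3, 329 of 2567 genes were higher (12.8%) and 391 lower (15.2%). Secondary and tertiary granule genes were higher for 11 of 11 with a median log2 ratio of 3.06 (17.7% of all genes were higher), and mature neutrophil genes lower for 10 of 12 with a median of -1.82 (13.3%). *Ngp*, a granule protein, had 43.5 and 2710 CPM (5.96 [5.39 to 6.60]), and 15.8 and 81.1 CPM in middle-aged. *Camp*, the antimicrobial cathelicidin, had 7.25 and 655 CPM (6.50 [5.14 to 8.38]), but 3 and 2 UMIs in middle-aged. Over the granule list, 6 members were higher and 1 lower in middle-aged cluster 3, with a median of 1.04. *Ngp* had a UMI in 3.83% and 66.3% of cells, or 1.32% and 50.9% when thinned. In B cell-like cells it was 1.36% and 9.02%. The median depth of cluster 3 was 2161 and 4059.5 UMIs.

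Other large rises in cluster 3 were those of *Tinagl1* (0 and 108 UMIs, at least 9.21-fold higher), *Itgb2l*, an integrin chain of granulocytes (1 and 255 UMIs, log2 ratio 6.03 [3.54 to 11.34]), and *Fosl1* (1 and 159 UMIs, 5.34 [2.85 to 10.66]). The 5 largest falls by the naming rule were those of *Gbp5* (-6.48), *Herc6* (-6.29), *Socs1* (-5.69), *Slfn5* (-5.57) and *Cass4* (-5.46). *Cxcl3* fell further, with 466 and 6 UMIs (-8.25 [-9.70 to -7.11]) and a middle-aged ratio of -3.86. It lay outside the rule because 10 cells held 54.9% of its day 6 UMIs. *Gbp5*, a guanylate-binding protein, had 538 and 6.02 CPM, and 793 and 103 CPM in middle-aged. *Ccl4*, a chemokine of activated neutrophils and lymphocytes, had 5120 and 122 CPM (-5.39 [-5.58 to -5.21]). 8 of the 10 leading genes of cluster 3 differed at least 2-fold between the days.

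Cluster 0 held most neutrophil-like cells. There 1766 of 5662 genes were higher (31.2%) and 341 lower (6.02%), with a median over all genes of 0.58. Centered on that median the split was 710 higher and 846 lower, and with a trimmed-mean scale factor 611 and 967. Relative to the median gene, therefore, a log2 ratio of 0.58 is no change here. By the naming rule, *Ngp* (7.45 and 177 CPM, log2 ratio 4.57 [4.08 to 5.10]) and *Camp* (5.53 and 82.1 CPM) rose most, then *Mrpl42*, *Ptgs1* and *Rex1bd*. Thinned, *Camp* had a UMI in 0.549% and 6.96% of cells, close to 0.34% and 5.37% of B cell-like cells. For *Ngp* the thinned shares were 0.618% and 7.56%, against 1.02% and 2.78%. The part of free RNA in these rises was not tested. Secondary and tertiary granule genes were higher for 6 of 11, where 39.7% of all genes were higher. *Ngp* stood at 4.08 and 4.70 CPM in middle-aged cluster 0. The largest falls were those of *Ifi205* (-3.61), *Schip1* (-3.19), *Ifit3b* (-2.99), *Il18* (-2.94) and *Cxcl3* (-2.84). *Cxcl3*, a chemokine that attracts neutrophils, had 988 and 138 CPM, and 1670 and 137 CPM in middle-aged. *Cxcl2*, a related chemokine, had 22900 and 13000 CPM, less than 2-fold apart before centering.

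Cluster 6, the cells with the most granule transcript, was small on day 6. Of 3738 genes, 227 were higher (6.07%) and 370 lower (9.9%), and with a trimmed-mean scale factor 308 and 303. *Ngp* was at 17400 and 28200 CPM, *Camp* at 18600 and 25900 and *Ltf*, the iron-binding lactoferrin, at 5220 and 7720, all less than 2-fold apart, and 1 of 11 granule genes was higher (9.34% of all genes). *Ltf* had a UMI in 58.3% of the 60 cells of day 6 and 98.6% of the 515 of day 10, or 50% and 95% when thinned. The largest rises were of stefins and their relatives, inhibitors of cysteine proteases. *Cstdc5* had 3 and 3344 UMIs (log2 ratio 6.90 [5.36 to 9.18]) and *Stfa2* had 6 and 1104 (4.30 [3.18 to 5.75]). *Stfa3* had 13 and 1072 UMIs (3.15 [2.37 to 4.06]), and a middle-aged ratio of -1.49. Reads of these near-identical paralogs may be split between them, so single members are uncertain. *Stfa2* UMIs were in 1.67% and 15.9% of cells.

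Mature neutrophil genes were lower in cluster 6 for 11 of 12 with a median of -1.69 (12% of all genes were lower). *Cxcr2*, the chemokine receptor by which neutrophils leave the marrow, had 958 and 282 CPM (log2 ratio -1.76 [-1.92 to -1.61]), and 742 and 540 CPM in middle-aged. It had a UMI in 93.3% and 76.9% of cells, or 60% and 26.6% when thinned. *Clec4d*, a lectin receptor, had 546 and 116 CPM (-2.23 [-2.44 to -2.01]), and *Ccr1*, *Fbxl5* and *Cytip* followed. CC chemokines were lower for 5 of 6 with a median of -2.01 (12% of all genes). In middle-aged recipients the median was 0.14, with 2 members higher and 2 lower. Summed over the list they fell in both ages, from 3870 to 627 CPM in young and from 4730 to 1580 CPM in middle-aged.

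In dendritic cell-like cluster 7, 148 of 6537 genes were higher (2.26%) and 341 lower (5.22%). The largest rises were those of *Zmynd15* (13.1 and 95.8 CPM), *F11r*, *S100a1*, *Sult1a1* and *Cyp4f18*, between 1.79 and 2.87 on the log2 scale. The largest falls were of interferon-induced genes, with *Ifit3* at 212 and 12.8 CPM (-4.05 [-4.70 to -3.48]), *Rsad2* at 290 and 22.3 CPM and *Ifit3b* and *Trim30c* at 3 and 4 UMIs on day 10, and of *Trib3*, a stress-induced pseudokinase with 159 and 3 UMIs (-3.90 [-6.20 to -2.33]).

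*Cd209a*, a lectin of conventional and monocyte-derived dendritic cells, had 540 and 85.1 CPM in cluster 7 (log2 ratio -2.67 [-2.90 to -2.44]), and 92.7 and 52.6 CPM in middle-aged. It had a UMI in 55.3% and 13.1% of cells, or 29.6% and 5.64% when thinned, against 0.678% and 0% of B cell-like cells. *Xcr1*, which marks cross-presenting dendritic cells, had 15.8 and 74.0 CPM (2.23 [1.85 to 2.61]). *Ccr7*, the homing receptor of mature dendritic cells, had 351 and 612 CPM, less than 2-fold apart. Maturation genes were higher for 3 of 14 (6.39% of all genes were higher) with a median of 0.52. NK cell markers were lower for 9 of 9 in this cluster (5.19% of all genes), and summed to 194 and 46.8 CPM with none and 3 of 10 at 0. The lower share of cluster 7, the lower *Cd209a* and the lower NK cell markers occurred together, and their part in one another was not tested.

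B cell-like and NK cell-like cells differed least. In cluster 4, 11 of 2793 genes were higher (0.394%) and 59 lower (2.11%), and centered on the median gene 18 and 38. Its largest rises were those of *Chil3*, *S100a8*, *S100a9*, *Fkbp5* and *Apoe*. *S100a8* had 45.9 and 245 CPM, but 113 and 39.9 CPM in middle-aged, and neutrophil markers summed to 141 and 782 CPM in young and 312 and 117 CPM in middle-aged. *Fkbp5*, a chaperone induced by glucocorticoids, had 34.7 and 141 CPM (log2 ratio 2.02 [1.47 to 2.61]). The largest falls were those of *Akap12*, a kinase anchor (113 and 7.52 CPM, -3.91 [-4.96 to -3.01]), *Fam129c* (128 and 14.4 CPM), *Tifa*, *Arl5c* and *Cecr2*. B cell markers were lower for 1 of 10 (4.53% of all genes), with a median of -0.47.

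In NK cell-like cluster 9, 20 of 2599 genes were higher (0.77%) and 20 lower (0.77%), and centered on the median gene 23 and 13. The cytotoxic genes *Gzma* (8120 and 8350 CPM), *Prf1* (564 and 619 CPM) and *Ncr1*, an activating receptor (335 and 373 CPM), differed by less than 2-fold. Of 13 cytotoxic genes none was higher (2.17% of all genes) and 1 was lower. By the naming rule, *Chil3*, *Ctsz*, *S100a6*, *Ly6c2* and *Pkp3* had the largest rises, between 1.02 and 2.70 on the log2 scale. *Ifi206*, *Trim30a*, *Hsph1*, *Myb* and *Zbp1* had the largest falls, between -2.09 and -1.32. *Apoe* rose further, with 17 and 350 UMIs (4.44 [3.74 to 5.23]) and a middle-aged ratio of 4.18. It lay outside the rule because 10 cells held 67.1% of its day 10 UMIs. *Apoe* had a UMI in 5.41% and 42% of these cells, below the B cell-like shares of 40.7% and 70.7%. *Myb*, a transcription factor of progenitors, had 86.9 and 34.9 CPM. Neutrophil markers summed to 526 and 1220 CPM.

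Of 5379 genes in unnamed cluster 11, 97 were higher (1.8%) and 196 lower (3.64%), and centered on the median gene 135 and 155. *Prss34*, a protease of basophils and mast cells, had 0 and 4037 UMIs, at least 459-fold higher and in 5.28% of the cells of day 10, but 880 and 854 UMIs in middle-aged. *Mcpt8*, another such protease, had 22.7 and 379 CPM (log2 ratio 4.06 [3.52 to 4.66]), and 728 and 66.8 CPM in middle-aged. Primary granule genes were higher for 5 of 5 with a median of 2.59 (3.02% of all genes were higher), with *Elane*, the neutrophil elastase, at 198 and 986 CPM. The largest rises chosen by the rule were those of *Igfbp7*, *Rgs16*, *Lag3*, *Tnfsf11* and *Nrgn*, which also rose in cluster 2, and the largest falls were those of *Zbp1* (-2.33), *Irf1*, *Ifi203*, *Trim30a* and *Parp14*. B cell markers were lower for 4 of 4 (6.67% of all genes) and summed to 630 and 81.4 CPM in this cluster, and their part in the gene values was not tested. 6 of 10 leading genes differed at least 2-fold.

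Most genes that differed in the young pair went the same way in the middle-aged pair. In cluster 1, 847 of the higher genes could be compared and 815 of them were also above 0 in middle-aged recipients, 571 at least 2-fold. Of 724 lower genes, 687 were below 0 and 411 at least 2-fold lower. Over all 9593 genes compared in cluster 1, 6190 were above 0. In cluster 2, 178 of 198 higher genes and 297 of 321 lower ones had the same sign, where 3643 of 8416 genes were above 0. In cluster 10 it was 172 of 193 and 313 of 349, where 2392 of 6283 were above 0, but 42 of the higher and 105 of the lower genes were at least 2-fold different in middle-aged microglia.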

How the data were processed

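The authors deposited unnormalized UMI counts for each gene in each cell, made with Cell Ranger v3.1.0 on mm10 with GENCODE vM23 genes (Ensembl 98, per the labels) and filtered in Seurat v4.0.4. Their filters took out cells with under 200 genes, reads above an upper limit or depth beyond 5 median absolute deviations. They also took out cells whose reads reached 10% mitochondrial or 50% ribosomal, and genes seen in fewer than 3 cells. Clusters are the deposited numbers, computed by the authors over all 4 libraries, and were not computed again. Depth per library and cluster sets the intervals given. No doublet caller was run.

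Counts were summed by cluster and library for 19449 genes, and ratios of CPM were formed with exact binomial intervals (95%). Software was Python 3.11.15, pandas 2.3.3, scipy 1.17.1, numpy 2.4.6 and, for figures, matplotlib 3.10.9. List members had 0.5 added to each count. With 1 library per day there was no test. Named genes are, per cluster, the 5 largest rises and falls of at least 2-fold with 100 or more UMIs, a UMI in 10% or more of the cells of the higher day and under 50% of UMIs in the 10 fullest cells, the 10 genes lower or higher in the most clusters, and members of the lists. Genes with this many UMIs but in few cells, or with 50% or more of them in the 10 fullest cells, are counted and not named by that rule. *Nos2*, *Il3*, *Ccl4*, *Prss34*, *Mcpt8* and the receptor and marker genes given beside a list were picked from the lists. Members, lists and clusters were chosen with earlier results of these data known. Gene and promoter positions are GRCm38 (GENCODE vM21, RefSeq GRCm38.p6).

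In counts simulated at the depth of clusters 1, 2 and 10, the ratio put in fell inside its interval in 95.2% of 9665 genes, 95.5% of 8461 and 95.6% of 7003. All of 192, 184 and 175 changed genes were counted as changed, with 0, 0 and 1 unchanged ones. These counts held counting error only, without variation between cells, mice or libraries, and the changes put in were well past 2-fold. The simulation therefore checks the arithmetic and gives no rate of false calls for the real libraries. Alternatives changed the scaling, genes in the total, minimum counts and cells. Cells of another lineage were found by a few T cell, B cell, microglia, NK cell and neutrophil markers. Monocyte/macrophage and dendritic cell markers were not used, and cells with a single UMI of another lineage stayed in. The naive samples, clusters 12 to 15 and *Mx1* were not analysed here.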

Additional observations from a re-analysis of the deposited data

Results flagged for a closer look

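The results in this part moved in opposite directions in the young and the middle-aged pair of libraries. They were picked by a rule and are not all such results. Shares and the largest rises and falls needed intervals on opposite sides of 0, and lists a young median of at least 2-fold. Opposite directions given above but outside the rule, as for *Il17a* and *Ifng* in T cell-like cells and *Nos2*, are not repeated. With 1 library per age and day each difference between the ages was not tested, and values are log2 ratios of day 10 over day 6. The share of neutrophil-like cluster 3 had a ratio of 0.89 in young and -0.56 in middle-aged recipients, and that of neutrophil-like clusters 0, 3 and 6 together 0.39 and -0.77. The share of NK cell-like cluster 9 had -0.34 and 0.94, and that of microglia-like cluster 10 had -0.50 and 0.65.

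In B cell-like cluster 4, *S100a8* had a ratio of 2.41 in young and -1.50 in middle-aged recipients and *S100a9* had 2.29 and -1.33, beside summed neutrophil markers of 141 and 782 CPM in young and 312 and 117 CPM in middle-aged recipients. Secondary and tertiary granule genes in cluster 5 had medians of 1.17 and -0.27. *Stfa3* in neutrophil-like cluster 6 had 3.15 and -1.49. Cytotoxic and NK genes had medians of -1.21 and 1.06 in cluster 1 and -1.30 and 1.65 in cluster 6. The cluster 6 medians rest on 3 members. In its middle-aged library of day 6, 12 of 13 members of the list had 0 UMIs, so that ratio lies near the floor.

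In the small cluster 6, B cell activation and antibody genes had medians of -1.38 and 1.4 over 4 members, and homeostatic microglia genes -1.27 and 0.34 over 5. In its middle-aged library of day 6, 10 of 13 members of the B cell list and 8 of 14 of the microglia list had 0 UMIs. T cell effector cytokines had medians of 1.01 and -0.70 over 3 members in microglia-like cluster 10, and 1.85 and -0.52 over 9 members in cluster 11.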

How the results depend on the processing

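No paired analysis was possible because each age and day had 1 library, and no replicate could be left out. Of 3224 alternative values of 355 list medians none turned direction past 2-fold, since all 936 that started past 2-fold kept their direction and 827 stayed past it. Of 830 alternative values of 120 named genes, 829 kept their direction. The exception was *Lag3* in cluster 5, at -0.087 with cells holding UMIs of another lineage left out, against 4.89 with all cells, both computed with 0.5 UMIs added to each count. Log2 ratios of shares moved for cluster 1 from -0.38 to -0.26 among cells outside the neutrophil-like clusters and to -0.29 without clusters 6 and 12, an alternative chosen after seeing the data. They moved for cluster 2 from 0.31 to 0.44 outside the neutrophil-like clusters, for cluster 5 from -1.24 to -1.64 with cells of another lineage left out, and for cluster 8 from 1.18 to 1.45 among cells with 1000 or more UMIs. Genes at least 2-fold higher summed over the clusters numbered 4621, and 11528 with 20 UMIs, 1265 with 500, 26283 with no minimum and 2231 with the whole interval past 2-fold. Lower genes numbered 4102, and 8288, 1906, 24577 and 2425 under the same settings, so these counts depend on depth. The median of MHC class II genes in cluster 10 was 3.06, and 3.16 without mitochondrial and ribosomal genes in the total, 3.25 centered on the median gene, 3.24 with a TMM scale factor, 3.16 as a mean over cells and 3.16 with cells of another lineage left out. Type I interferon-stimulated genes had -2.60 by TMM against -2.50 in cluster 1, and -0.23 as a mean over cells against -0.75 in cluster 10, where the cause was not tested. Macrophage maturation genes in cluster 1 had 1.30, and 1.22 centered, 1.20 by TMM, 1.39 as a mean over cells and 1.4 with cells of another lineage left out. Leaving out cells of another lineage was not run for unnamed cluster 11.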
